A study of Mus musculus with 7 samples.

Results

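The SLC25 genes encode the mitochondrial carrier family, and 7 arrays gave their transcript levels in differentiated 3T3-L1 cells. The carriers were taken as all genes whose symbol is Slc25a followed by a number and that own at least 1 array row annotated with that symbol alone. This gave 46 genes of the 18820 tested, from 51 rows. 3T3-L1 is an established mouse line of pre-adipocytes, which become fat cells under hormones. The labels describe a differentiation of 7 days that isobutylmethylxanthine, dexamethasone and insulin started over 2 days and insulin alone kept up. In the control group (4 arrays) the cells were held in the solvent DMSO, and in the other (3 arrays) in 1 µM of a bought compound that blocks stearoyl-CoA desaturase (SCD), the enzyme that desaturates stearic and palmitic acid. Both groups got the same hormones, were collected on day 7 and gave 100 ng of RNA per array. The labels give no name for the compound. They also do not say whether replicates were separate cultures, so the p-values rest on a spread between samples that may be technical.

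Mitochondrial carriers are small proteins of the inner mitochondrial membrane that let charged metabolites, nucleotides and cofactors pass between the cytosol and the matrix. In fat cells they export citrate for fatty acid synthesis, bring in acylcarnitines for oxidation, and swap ADP for ATP. Others bring the matrix its iron, glutathione, NAD and nucleotides.

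The values are RMA expression levels on the log2 scale, so a difference of 1 means a 2-fold change. The lowest was 2.23 and the highest 13.2, and arrays of the same group correlated at 0.999 or more over all genes. Array medians were 4.88 on SCD inhibitor 1 and 4.93 to 4.94 on the others. The sample labels call the cells pre-adipocytes and the series calls them adipocytes. A set of 9 adipocyte markers had a mean level of 12.02 to 12.06 on the DMSO arrays and of 12.01 to 12.06 on the inhibitor arrays, and none passed the test in limma (2 had an unadjusted p under 0.05). At a level of 12 and above, limma called only 2.63% of all genes, which limits what these markers can show about a change. Macrophage markers (6 genes) had a mean level of 4.34 to 4.44 and endothelial markers (4 genes) of 3.49 to 3.60 over all arrays. The mean of 4 pre-adipocyte markers was 7.78 to 7.94 in DMSO and 8.22 to 8.31 with the inhibitor. Of these, Pdgfra (log2 difference 0.89, SE 0.093) and Dlk1 (0.32, SE 0.070) rose, while Thy1 (0.29, SE 0.096) and Cd34 (0.03, SE 0.040) did not pass. Less RNA per cell and fewer cells of a type cannot be told apart in these bulk samples, and the part of the pre-adipocyte markers in the results below was not tested.

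With the inhibitor 7 carrier genes fell and 1 rose. The largest decreases were those of Slc25a34, a carrier without a settled substrate (4.30-fold lower), and Slc25a33, a pyrimidine nucleotide carrier (2.87-fold lower). The other 5 fell by 1.12- to 1.37-fold: Slc25a39 and Slc25a40, which carry glutathione, Slc25a37, which carries iron, Slc25a20, which carries acylcarnitines, and Slc25a51, which carries NAD. Slc25a25, an ATP-Mg/phosphate carrier, rose 1.14-fold. The calls differed in how well they held over 17 alternative fits, among them those without 1 array. Slc25a33, Slc25a34 and Slc25a39 were called in all 17, Slc25a20 in 16, Slc25a40 in 14 and Slc25a37 in 11. Slc25a51 and Slc25a25 were called in only 7 each. The carriers with the best known part in fat synthesis and energy supply, for citrate, phosphate and ADP/ATP, did not pass.

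Calls were made where limma, fitted over all 18820 genes (n = 3 against 4), gave an adjusted p under 0.05. The 8 called carriers are 17.4% of 46, beside 8.00% of all genes. The 7 that fell are 15.2% of the family beside 4.37% of all genes lower, and the 1 that rose is 2.17% beside 3.62% higher. The share called varied with the level. Of carriers with a mean level from 8 to 12, 5 of 20 were called beside 17.9% of all genes there, and from 5 to 8 it was 3 of 13 beside 10.1%. At a level under 5, limma called 0 of 10 carriers beside 0.599% of all genes, with 1 carrier at an unadjusted p under 0.05. At 12 and above it called 0 of 3 beside 2.63%, with 0 at an unadjusted p under 0.05. In 12 carriers (26.1%) the inhibitor values lay wholly on one side of the DMSO values, 11 of them below and 1 above. Over all genes this was so for 17.3%, with 9.02% below and 8.30% above. An unadjusted p under 0.05 was found for 16 carriers (34.8%) and for 21.9% of all genes. The median difference over the 46 was -0.04, beside -0.0037 over all genes tested.

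**Figure D1:**
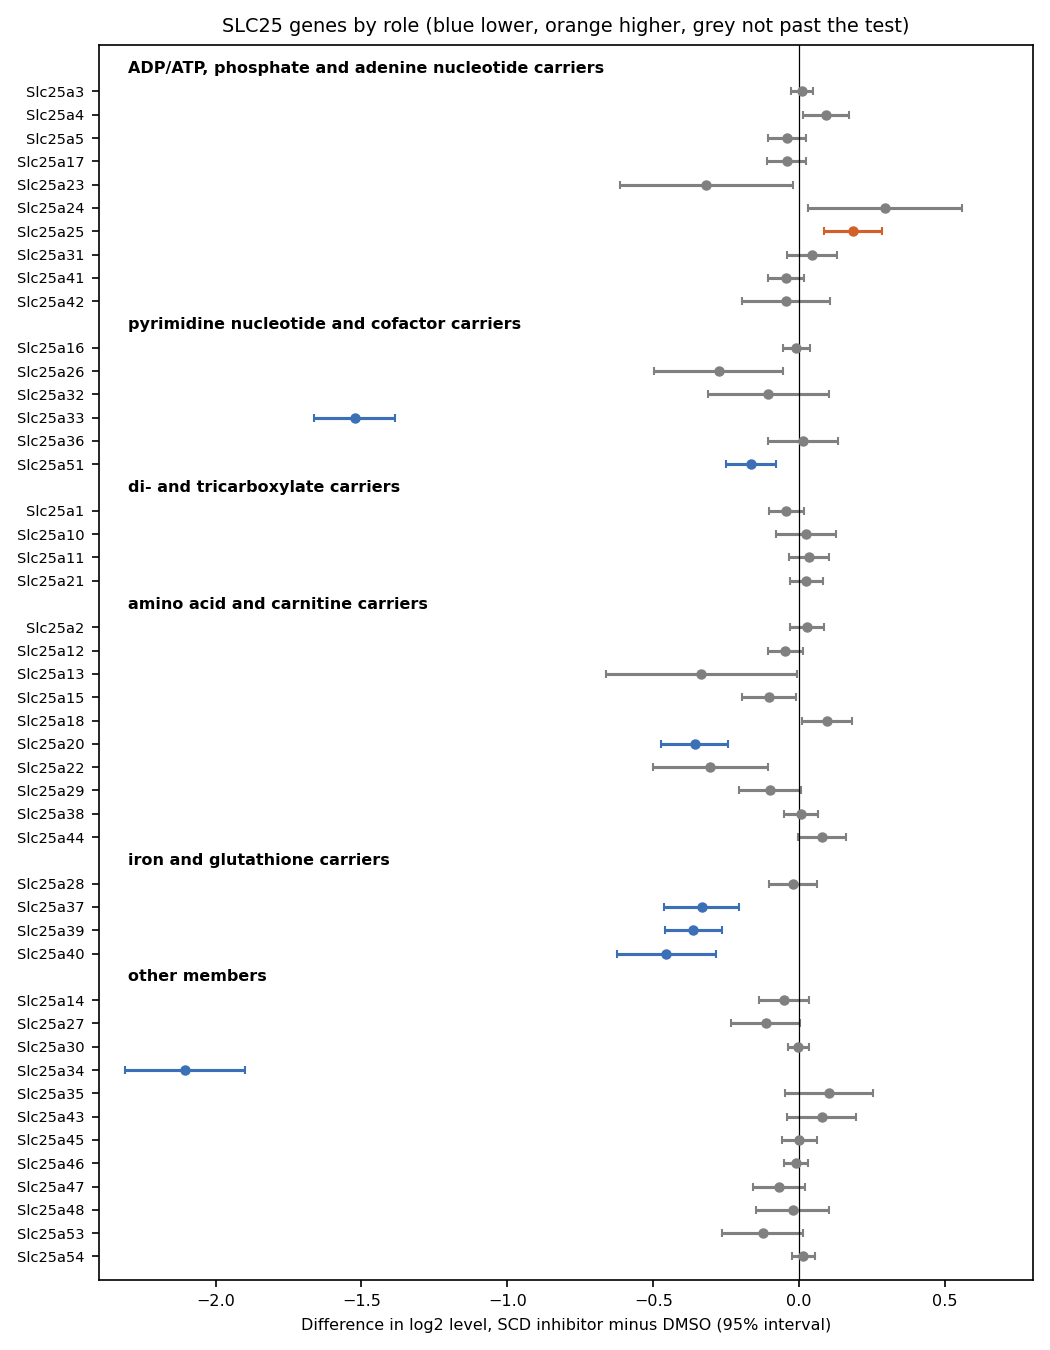
Difference in log2 level between SCD inhibitor and DMSO arrays (x axis) for each of the 46 carrier genes (y axis, grouped by role), with the 95% interval from limma as bars. Slc25a34 at -2.11 and Slc25a33 at -1.52 stand far to the left, 5 smaller decreases are blue, Slc25a25 is orange, and 38 grey genes did not pass the test.

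Slc25a33 carries pyrimidine nucleotides into mitochondria, where they are needed for mitochondrial DNA and RNA, and its transcript is known to respond to insulin. It read 9.36, 9.20, 9.23 and 9.32 on the DMSO arrays and 7.65, 7.79 and 7.83 on the inhibitor arrays. The groups lay more than 1 unit apart, and no array of either group came near the other. The mean fell from 9.28 ± 0.076 (SD, n = 4) to 7.76 ± 0.096 (SD, n = 3), a difference of -1.52 (SE 0.058, 95% interval -1.66 to -1.38, adjusted p = 3.89e-05 in limma). Slc25a36, the other pyrimidine nucleotide carrier of the family, had a difference of 0.01 (95% interval -0.11 to 0.13) and did not pass.

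Slc25a34 belongs to a branch of the family with Slc25a35, and what it carries in mammals is not settled. It read 7.52, 7.41, 7.13 and 7.43 in DMSO and 5.27, 5.26 and 5.27 with the inhibitor. All inhibitor arrays were thus low and close to each other, while DMSO 3 was the lowest of its group. The mean fell from 7.37 ± 0.17 (SD, n = 4) to 5.27 ± 0.0089 (SD, n = 3), a difference of -2.11 (SE 0.087, 95% interval -2.31 to -1.90, adjusted p = 5.93e-05 in limma). By p-value Slc25a33 ranked 26 and Slc25a34 ranked 29 of all 18820 genes. Slc25a35 had a difference of 0.10 (95% interval -0.05 to 0.25) and did not pass.

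**Figure D2:**
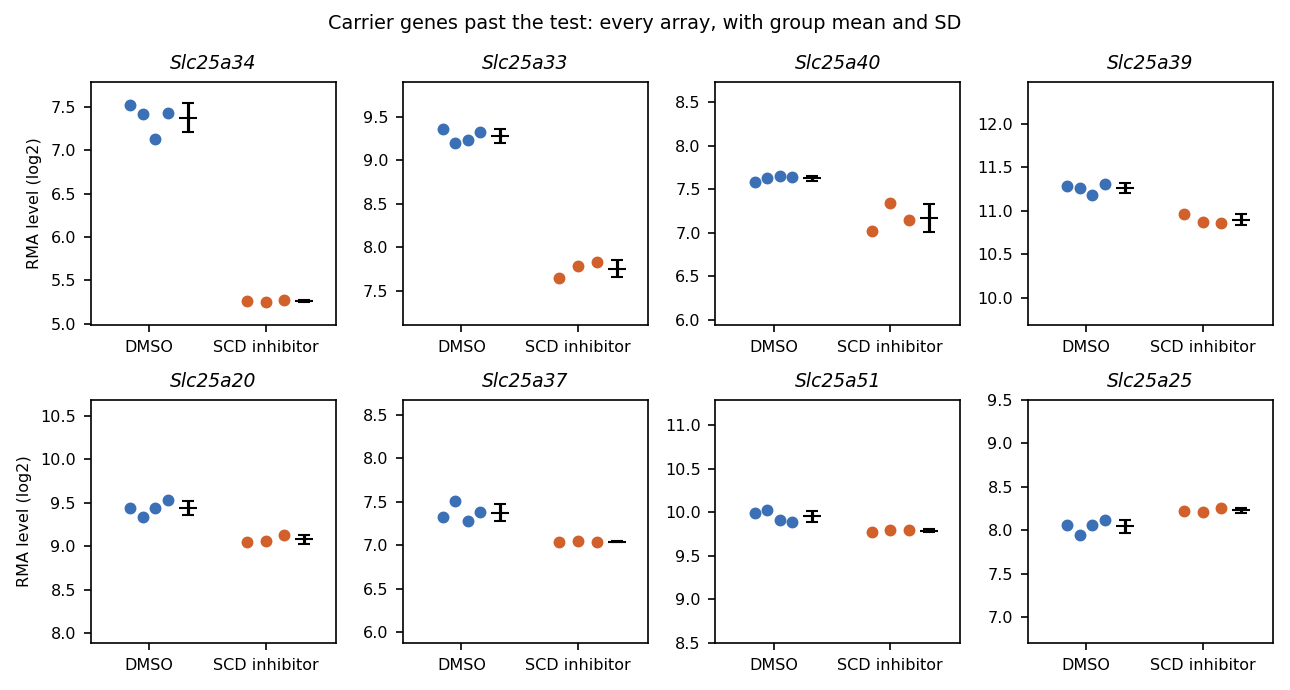
Level of the 8 called carrier genes on every array (y axis, RMA log2, each panel spanning 2.8 units), with DMSO in blue, SCD inhibitor in orange, and the group mean with its SD as the black mark. The groups do not overlap in any panel. Their means lie farthest apart for Slc25a34, at 7.37 and 5.27, and nearest for Slc25a51, at 9.95 and 9.79.

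The sequence before the start site is shown to let the letters be read beside the decreases. It is given for called carriers with a promoter entry from RefSeq and upstream bases that lie in no annotated gene. Bases inside the gene's own annotated span were cut off. This left 193 bases for Slc25a34, which end at that edge and not at the start of its entry. Promoter entries were found for 36 of the 46 carriers and 6 of the 8 called ones, and the condition on annotated genes left Slc25a33, Slc25a34 and Slc25a20. All are from build GRCm38.p6, 5′ to 3′ on the gene's own strand. They lie at chr4:149774268-149774517 (minus strand), chr4:141623892-141624084 (minus strand) and chr9:108661886-108662135 (plus strand). Capitals mark the letters GGGCGG (the GC box) and CCAAT on either strand.
Slc25a33: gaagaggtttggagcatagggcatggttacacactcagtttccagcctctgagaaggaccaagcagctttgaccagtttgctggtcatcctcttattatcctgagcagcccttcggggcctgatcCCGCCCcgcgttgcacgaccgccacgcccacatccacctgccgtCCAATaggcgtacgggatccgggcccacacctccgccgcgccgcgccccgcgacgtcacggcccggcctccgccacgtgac
Slc25a34: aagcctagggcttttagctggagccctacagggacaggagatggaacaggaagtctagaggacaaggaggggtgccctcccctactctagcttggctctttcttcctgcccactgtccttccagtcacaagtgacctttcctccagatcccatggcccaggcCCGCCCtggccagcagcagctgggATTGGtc
Slc25a20: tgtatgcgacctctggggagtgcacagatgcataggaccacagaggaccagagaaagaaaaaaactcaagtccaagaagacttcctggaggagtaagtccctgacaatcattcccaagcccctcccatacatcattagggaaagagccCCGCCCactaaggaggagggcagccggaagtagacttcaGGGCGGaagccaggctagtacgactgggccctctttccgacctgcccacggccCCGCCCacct
In these stretches the GC box was found once each before Slc25a33 and Slc25a34 and 3 times before Slc25a20, and CCAAT was found before Slc25a33 and Slc25a34. Over the whole window, from 250 bases before to 50 bases after the start, the GC box was in 30 of the 36 carriers with an entry and in all 6 called ones, and in 38.2% of the 27025 genes with an entry, a gene counting where any of its entries held the letters. CCAAT was in 19 of 36 carriers, in 3 of the 6 called ones and in 41.1% of those genes. The 27025 genes are all that have an entry, measured here or not, so they are not a set like the carriers. The letters TGATGNAA, bound by heterodimers of CEBP and ATF factors, were in 0 of 36 carriers and in 4.51% of the genes on either strand. The letters TNAAGGTCA of the estrogen-related receptors (1.43% of genes) and the PPAR element (0.0481%), which is AGGTCA repeated with 1 free base between and so can overlap the first, were likewise in 0 of 36. TCACNCCAC, a sterol element, was in Slc25a18 alone of the 36 (1.44% of genes), and the palindromic NRF1 element in none (1.07%). These are matches of letters in a short window only.

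Among the 4 iron and glutathione carriers 3 fell and 1 did not pass, with a median difference of -0.35. Over all genes 4.37% were lower, and the role lists were chosen with earlier results of these data known. Glutathione enters the matrix through Slc25a39 and its close relative Slc25a40, and there it protects iron-sulphur enzymes and buffers peroxide. Slc25a39 read 11.29, 11.26, 11.19 and 11.31 in DMSO and 10.97, 10.88 and 10.86 with the inhibitor, so every inhibitor array was below every DMSO array. It fell by 0.36 (SE 0.040, 95% interval -0.46 to -0.27, adjusted p = 0.00314 in limma). Slc25a40 read 7.59, 7.64, 7.65 and 7.64 in DMSO and 7.03, 7.35 and 7.15 with the inhibitor. The DMSO arrays were tight and the inhibitor arrays spread, with SCD inhibitor 1 the lowest. It fell by 0.45 (SE 0.071, adjusted p = 0.0114 in limma), a call that was lost when SCD inhibitor 3 was left out (adjusted p = 0.0568), or both arrays numbered 1 (0.0636). A further row annotated to Slc25a40 also had a lower mean, 6.93 in DMSO and 6.43 with the inhibitor, a difference of -0.50 (SE 0.057, adjusted p = 0.0051 in limma over all rows).

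Slc25a37, mitoferrin 1, and Slc25a28, mitoferrin 2, bring iron into the matrix for haem and iron-sulphur clusters. Slc25a37 read 7.32, 7.51, 7.27 and 7.38 in DMSO and 7.04, 7.04 and 7.04 with the inhibitor. The inhibitor arrays were nearly equal (SD 0.0035) and below all DMSO arrays. It fell by 0.33 (SE 0.054, adjusted p = 0.0131 in limma), but the call ended without DMSO 4 (adjusted p = 0.0509), without SCD inhibitor 1 (0.0504), 2 (0.0555) or 3 (0.0602) and without both arrays numbered 1 (0.107). Slc25a28 had a difference of -0.02 (95% interval -0.10 to 0.06) and did not pass.

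Of the 10 amino acid and carnitine carriers 1 fell and 9 did not pass. The decrease was that of Slc25a20, which exchanges acylcarnitines for carnitine and so lets long-chain fatty acids reach the matrix. It read 9.44, 9.33, 9.44 and 9.53 in DMSO and 9.04, 9.06 and 9.13 with the inhibitor, with no overlap. The difference of -0.36 (95% interval -0.47 to -0.24, adjusted p = 0.0063 in limma) kept its call without any 1 array and lost it without both arrays numbered 1 (adjusted p = 0.0932). Slc25a22, a glutamate carrier, read 9.43, 9.14, 9.19 and 9.35 in DMSO and 9.07, 8.99 and 8.86 with the inhibitor. Its groups did not overlap, yet its difference of -0.30 (SE 0.083) missed the threshold (adjusted p = 0.0831 in limma). It passed once the arrays were quantile normalized again (adjusted p = 0.0466) and with the dimmest 50% of genes dropped (0.0308).

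The aspartate-glutamate carriers of the malate-aspartate shuttle, Slc25a12 and Slc25a13, did not pass. Slc25a12 had a difference of -0.05 (95% interval -0.11 to 0.01). Slc25a13 had one of -0.33 (95% interval -0.66 to -0.01, adjusted p = 0.219), with SCD inhibitor 1 at 5.07 and the other inhibitor arrays at 5.57 and 5.54, beside 5.57 to 5.87 in DMSO. Slc25a15, an ornithine carrier (-0.10), and Slc25a18, a glutamate carrier (0.10), had unadjusted p under 0.05 without passing. The remaining amino acid carriers were Slc25a2 (0.03), Slc25a29 (-0.10), the glycine carrier Slc25a38 (0.01) and Slc25a44, a carrier of branched-chain amino acids (0.08), and none passed.

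Of the 6 pyrimidine nucleotide and cofactor carriers 2 fell, Slc25a33 and Slc25a51. Slc25a51 brings NAD into the matrix, where dehydrogenases need it. It read 9.99, 10.02, 9.90 and 9.89 in DMSO and 9.77, 9.80 and 9.79 with the inhibitor, a small gap with no overlap. It fell by 0.17 (SE 0.036, adjusted p = 0.0395 in limma), and of the 7 fits that left out 1 array only that without DMSO 4 kept the call (adjusted p = 0.0447). Leaving out DMSO 1, 2 or 3 gave 0.102, 0.0734 and 0.0616, and leaving out SCD inhibitor 1, 2 or 3 gave 0.113, 0.106 and 0.113. Array weights (0.0652), a test over all rows (0.0533) and leaving out both arrays numbered 1 (0.221) also ended the call.

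Slc25a26, which brings S-adenosylmethionine to the matrix, read 7.50, 7.45, 7.47 and 7.65 in DMSO and 7.05, 7.43 and 7.24 with the inhibitor. The groups did not overlap, SCD inhibitor 1 was the lowest, and the difference of -0.28 (SE 0.093) did not pass (adjusted p = 0.146 in limma). It passed with each array centred on its median (adjusted p = 0.0431). Slc25a32, the folate and FAD carrier, read 8.12 to 8.13 in DMSO, and 7.79, 8.12 and 8.16 with the inhibitor. SCD inhibitor 1 alone was low there, and it was also the lowest array (8.57, beside 8.80 to 8.94 on the others) in a row that carries the symbols of Slc25a32 and Dcaf13 together. Slc25a16 (-0.01) did not pass either.

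Of the 10 carriers of ADP, ATP, phosphate and other adenine nucleotides 1 rose and 9 did not pass. Slc25a25, a calcium-regulated carrier that exchanges ATP-Mg for phosphate, read 8.06, 7.95, 8.06 and 8.12 in DMSO and 8.22, 8.21 and 8.26 with the inhibitor. Its groups lay close without overlap. It rose by 0.18 (SE 0.042, 95% interval 0.08 to 0.28, adjusted p = 0.0456 in limma). The call ended without DMSO 1 (adjusted p = 0.11), DMSO 3 (0.11), SCD inhibitor 1 (0.106), 2 (0.109) or 3 (0.152) and without both arrays numbered 1 (0.205), and also with array weights (0.0689), with trend and robust options (0.05002) and over all rows (0.0614).

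The 2 other calcium-regulated carriers of this kind did not pass and had differences of opposite sign. Slc25a24 had a difference of 0.30 (95% interval 0.03 to 0.56, adjusted p = 0.184) and Slc25a23 one of -0.32 (95% interval -0.61 to -0.02, adjusted p = 0.2), both from limma. The groups overlapped in both. Slc25a24 passed with each array centred on its median (adjusted p = 0.0404). Slc25a41, the form of this group without calcium control, had a difference of -0.04.

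The ADP/ATP carriers supply the cytosol with ATP and are among the most abundant proteins of the inner membrane. Slc25a4, the form best known from heart and muscle, read 11.08, 11.04, 10.97 and 11.04 in DMSO and 11.08, 11.13 and 11.16 with the inhibitor, with overlapping groups. Its difference of 0.09 (95% interval 0.01 to 0.17) did not pass (adjusted p = 0.169 in limma). Slc25a5, the widespread form, had a difference of -0.04 (95% interval -0.11 to 0.02), and its 2 other rows had differences of -0.03 and -0.01. Slc25a31, the germ cell form, read 2.93 to 3.09 over all arrays, near the low end of the scale. The phosphate carrier Slc25a3 had a difference of 0.01 (95% interval -0.03 to 0.05). Slc25a42, which carries coenzyme A (-0.05), and Slc25a17, which works in peroxisomes and not in mitochondria (-0.04), did not pass.

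**Figure D3:**
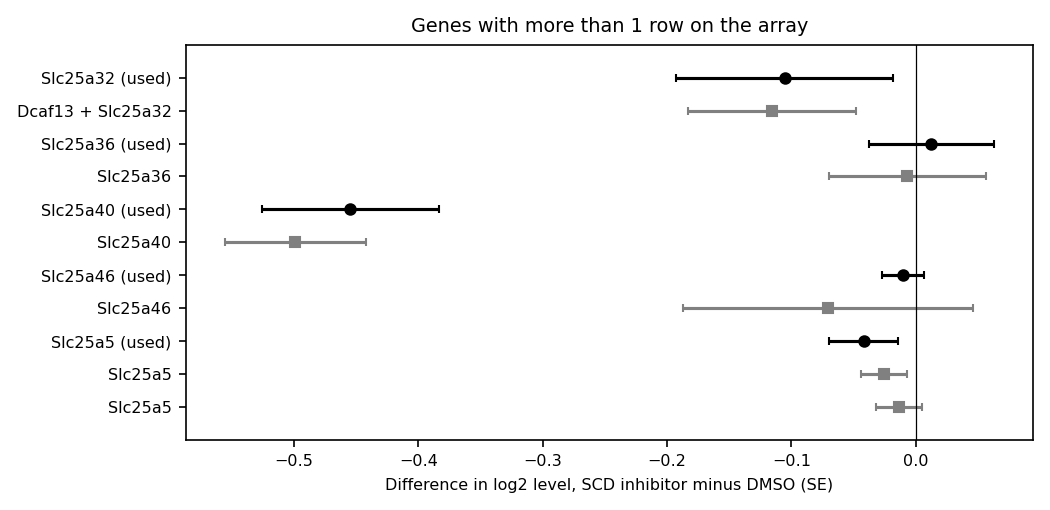
Difference in log2 level, SCD inhibitor minus DMSO (x axis), for every row of the genes with more than 1 row (y axis), with the SE as bars; black circles mark the row that stands for the gene and grey squares the others. Both rows of Slc25a40 lie to the left, at -0.45 and -0.50, and the rows of Slc25a5 lie between -0.04 and -0.01.

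None of the 4 di- and tricarboxylate carriers passed in limma, and 0 had an unadjusted p under 0.05. Slc25a1 exports citrate, the carbon source of cytosolic acetyl-CoA. It read 12.27, 12.20, 12.23 and 12.20 in DMSO and 12.20, 12.18 and 12.17 with the inhibitor, with a difference of -0.04 (95% interval -0.10 to 0.02). The dicarboxylate carrier Slc25a10, which is plentiful in white fat, had a difference of 0.02 (95% interval -0.08 to 0.13). The oxoglutarate carrier Slc25a11, a part of the malate-aspartate shuttle, had one of 0.03 (95% interval -0.03 to 0.10), and Slc25a21 one of 0.02. Slc25a1, Slc25a5 and Slc25a10 are the 3 carriers at a level of 12 and above. Among all 76 genes at that level 2 were called, and the larger of their differences was 0.227 in size.

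Of the 12 remaining members 1 fell, Slc25a34, and 11 did not pass, with differences from -0.13 for Slc25a53 to 0.10 for Slc25a35. They include the uncoupling protein relatives Slc25a14 (-0.05), Slc25a27 (-0.12) and Slc25a30 (-0.00), and Slc25a46 (-0.01), which sits in the outer membrane and acts in mitochondrial shape. A second row of Slc25a46 had a difference of -0.07 (SE 0.12). Slc25a43 (0.08), Slc25a45 (0.00), Slc25a47 (-0.07), Slc25a48 (-0.02) and Slc25a54 (0.01) complete the group. In 33 of the 46 carriers at least 2 arrays held the identical value, and in 28 a value recurred in both groups. None of the 8 called carriers had an identical value on 2 or more arrays. As their groups do not overlap, a repeat across groups was not possible for them. Slc25a30 held 7.59 on all 4 DMSO arrays, with an SD of 0.

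**Figure D4:**
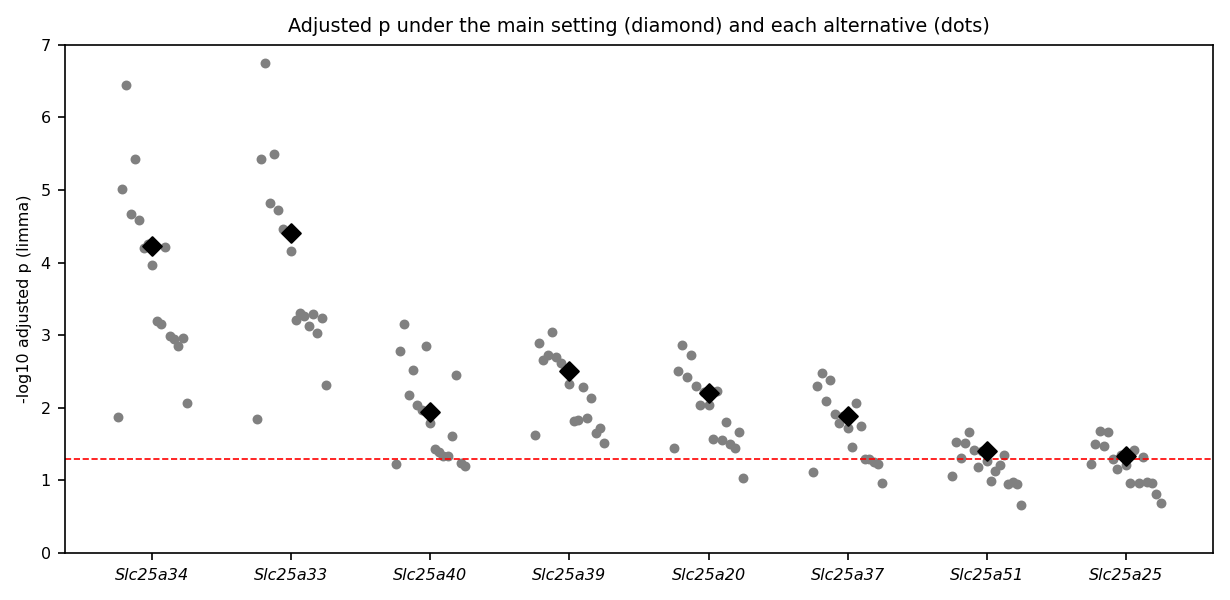
Adjusted p from limma as its negative log10 (y axis) for the 8 called carriers (x axis), with the main setting as a black diamond, 17 alternatives as grey dots, and the threshold of 0.05 as a dashed line. Slc25a34, Slc25a33 and Slc25a39 stay above the line in all 17 alternatives, and Slc25a51 and Slc25a25 fall below it in 10 each.

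Genes that work beside the carriers were read from 9 lists with 64 measured genes, of which 7 rose and 10 fell. Of all genes 8.00% were called, 3.62% higher and 4.37% lower. That share was 17.9% for genes at a mean level from 8 to 12 and 10.1% from 5 to 8. The median difference of the 64 was -0.02. Of 4 family members under other symbols 1 fell: Ucp3, an uncoupling protein, from 6.07 to 5.59 (-0.48, SE 0.078, adjusted p = 0.0134 in limma), with adjusted p = 0.0506 without SCD inhibitor 3 and 0.114 without both arrays numbered 1. Ucp1, the uncoupling protein of brown fat, read 3.43 to 3.52 on all arrays. Mtch1 (-0.01) and Mtch2 (0.11) did not pass.

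Carriers reach the inner membrane through the TIM22 complex, and of 12 genes of this import route 2 rose and 10 did not pass. Timm29, a subunit of that complex, read 7.75 to 7.80 in DMSO and 7.94 to 7.97 with the inhibitor and rose by 0.17 (SE 0.022). Timm22, its channel, read 8.27 to 8.34 in DMSO and 8.40 to 8.50 with the inhibitor and rose by 0.16 (SE 0.032). Leaving out DMSO 2, 3 or 4 brought the adjusted p of Timm22 in limma to 0.0739, 0.0831 and 0.0873, and leaving out SCD inhibitor 2 or 3 to 0.0934 and 0.102. Timm13 (0.09) and Tomm70a (0.13) came nearest of the others. The rises ran opposite to the change of most called carriers. They were smaller in size than the decreases of Slc25a33 and Slc25a34, and near the changes of Slc25a51 (-0.17) and Slc25a25 (0.18).

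Of 15 other mitochondrial membrane transporters 2 rose and 2 fell. Sfxn3, a sideroflexin, rose by 0.63 (SE 0.073; adjusted p = 0.0697 in limma without both arrays numbered 1), and Sfxn1, which carries serine into mitochondria, fell by 0.26 (SE 0.029). Mcu, the pore of the calcium uniporter, fell from 8.57 to 8.24 (-0.33, SE 0.023). Abcb10, which is known to bind and stabilise Slc25a37, rose from 7.80 to 8.05 (0.26, SE 0.027). The transporters Abcb6 (0.13) and Abcb8 (0.12), Mpc1 of the pyruvate carrier (-0.03) and the outer membrane pores Vdac1 (-0.01), Vdac2 (0.04) and Vdac3 (-0.06) did not pass.

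In the 6 shuttle enzymes 3 fell. Gpd2, the mitochondrial enzyme of the glycerol phosphate shuttle, read 9.63, 9.80, 9.79 and 9.83 in DMSO and 8.65, 8.73 and 8.66 with the inhibitor. It fell by 1.08 (SE 0.050, adjusted p = 7.85e-05 in limma), a gap wider than that of any called carrier except Slc25a33 and Slc25a34. Got1, the cytosolic transaminase of the malate-aspartate shuttle, fell by 0.29 (SE 0.035). Gpd1 fell by 0.23 (SE 0.037) and lost its call when DMSO 4 was left out (adjusted p = 0.05004 in limma), or SCD inhibitor 2 (0.0578) or SCD inhibitor 3 (0.0602). The mitochondrial partners Got2 (-0.02) and Mdh2 (-0.07) and the cytosolic Mdh1 (0.06) did not pass.

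Of 4 enzymes around exported citrate 2 rose. Acly, which splits citrate in the cytosol, rose by 0.22 (SE 0.034; adjusted p = 0.101 in limma without both arrays numbered 1). Idh1 rose by 0.15 (SE 0.030), a call lost in limma when DMSO 1, 2 or 3 was left out (adjusted p = 0.0656, 0.0797 and 0.0734), SCD inhibitor 1, 2 or 3 (0.054, 0.0866 and 0.0987), or both arrays numbered 1 (0.115). Me1, malic enzyme (-0.12), and Cs, citrate synthase (-0.03), did not pass. In the carnitine shuttle, Cpt1a, which makes acylcarnitines at the outer membrane, rose from 9.30 to 9.73, while Slc25a20, the next step, fell. Cpt2 (-0.05) and Crat (-0.03), the other enzymes measured, did not pass.

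Of 9 enzymes of mitochondrial one-carbon and glycine metabolism 2 fell and 7 did not pass. Mthfd2 fell by 0.38 (SE 0.061), with adjusted p in limma of 0.052 without SCD inhibitor 1 and 0.0562 without SCD inhibitor 2. Aldh1l2 fell by 0.37 (SE 0.073), and limma's adjusted p rose to 0.0636, 0.0885 and 0.0836 on leaving out DMSO 2, 3 or 4, to 0.0852 and 0.103 on leaving out SCD inhibitor 1 or 3, and to 0.0764 on leaving out both arrays numbered 1. Gcsh (0.09) and Mthfd2l (0.08) did not pass. None of 6 iron and haem enzymes passed in limma, and 2 had an unadjusted p under 0.05: Fech, which puts iron into haem (-0.15), and Cpox (-0.28). In 3 of the 6 (Fech, Cpox and Iscu) every inhibitor array lay below every DMSO array, as it did in 9.02% of all genes.

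Of 5 enzymes of proline and glutamate metabolism 2 fell. Prodh, which oxidises proline in mitochondria, read 9.51, 9.34, 9.43 and 9.39 in DMSO and 7.88, 8.01 and 7.98 with the inhibitor and fell by 1.46 (SE 0.048, adjusted p = 3.31e-05 in limma). Aldh18a1, which starts proline synthesis there, fell by 0.63 (SE 0.056). Glud1, glutamate dehydrogenase, had a difference of -0.09 and Aldh4a1, a later step of proline breakdown, one of 0.01, and neither passed.

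**Figure D5:**
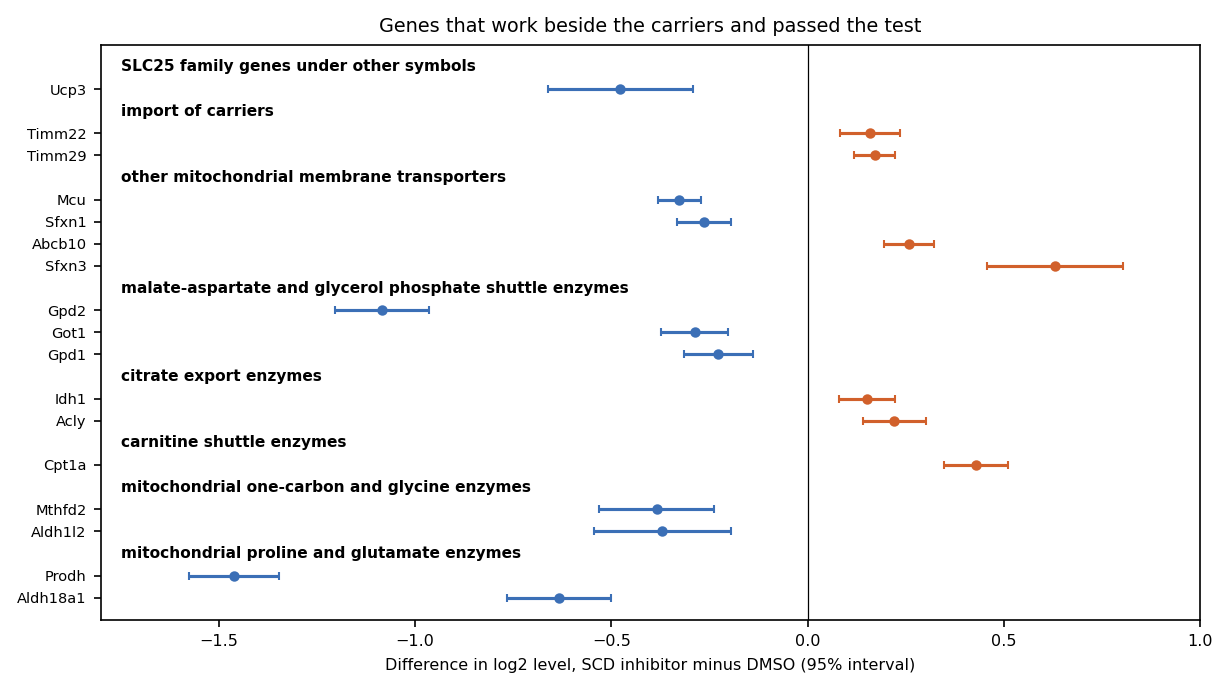
Difference in log2 level, SCD inhibitor minus DMSO (x axis, with the 95% interval from limma), for the 17 genes beside the carriers that passed the test (y axis, grouped by list). Prodh at -1.46 and Gpd2 at -1.08 lie farthest left, Sfxn3 at 0.63 farthest right.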

How the data were processed

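The deposited log2 expression levels come from RMA, per the submitters' processing notes. Its version, the annotation used and filters were not stated there; the values themselves show the scale. Every column matched 1 of 7 samples, grouped by the treatment label (4 DMSO, 3 SCD inhibitor). Of 28996 rows, 21218 had 1 gene symbol in the platform annotation, 1881 several and 5897 none. Only rows with 1 symbol were tested, and where a gene had several rows, its brightest by mean over the 7 arrays was kept, which left 18820 genes. No filter on level was applied. Limma 3.58.1 (lmFit and eBayes) in R 4.3.3 was fitted to all arrays with a term for the inhibitor (5 residual and 1.68 prior degrees of freedom), after a check on simulated data, with Benjamini-Hochberg adjustment across the 18820 genes. Precision is limited by the number of arrays (median SE 0.039). Carriers were named where called, where their unadjusted p was under 0.05, or as the main nucleotide, phosphate, carboxylate, aspartate-glutamate and carnitine carriers; the rest are given by value. Genes beside them were named where called or among the 2 smallest p of the others in a list; Ucp1, Mtch1, Mpc1, Vdac1 to Vdac3 and Got2 were added for their roles after values were seen. The members, their role lists, the lists beside them and the tests were chosen with earlier results of these data known. Promoters came from RefSeq tables of GRCm38.p6, and the GC box, CCAAT and NRF1 letters were added after the first search. Alternatives tried were a block on replicate number, quantile normalization, centring, dropping dim genes, trend and robust options, array weights, the mean of a gene's rows, all rows tested, and leaving out each array or both arrays numbered 1.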

Additional observations from a re-analysis of the deposited data

Results flagged for a closer look

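In the 4 DMSO arrays, 1 array stood apart from the others for 7 of the 46 carriers, and none of the 7 was called. This was measured as the gap to the nearest array over the group's whole range, set against Dixon's limit for 4 values. The limit's chance rate of about 1 in 20 holds for values without ties. In 33 of the 46 carriers at least 2 arrays held the identical value, so the 7 cannot be set against that rate. DMSO 4 was high for Slc25a14 (4.42 beside 4.31, ratio 1), Slc25a16 (10.12 beside 10.10, ratio 1) and Slc25a45 (7.35 beside 7.29, ratio 0.877), and low for Slc25a43 (4.55 beside 4.65, ratio 1). DMSO 1 was high for Slc25a42 (9.47 beside 9.35, ratio 0.871) and low for Slc25a54 (3.07 beside 3.09, ratio 1). DMSO 2 was low for Slc25a11 (11.00 beside 11.08, ratio 0.891). A ratio of 1 means that the other 3 arrays held the identical value.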

How the results depend on the processing

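Slc25a33, Slc25a34 and Slc25a39 were called as lower in all 17 alternatives. Against 8 called carriers (1 higher, 7 lower), leaving out 1 array gave 4 to 7 called, 0 to 1 higher and 4 to 6 lower, and leaving out both arrays numbered 1 gave 3 called, 0 higher and 3 lower; these fits hold fewer samples. No carrier was higher with trend and robust options (0), array weights (0) or all rows tested (0), where Slc25a25 lost its call in limma, and 2 were higher with the arrays centred, Slc25a24 and Slc25a25; 4 carriers had a positive difference at an unadjusted p under 0.05 in the main setting. The sign of Slc25a10, not called, turned without SCD inhibitor 3 (from -0.0073 to 0.056 on leaving out 1 array), and the cause was not tested. The number of called genes beside the carriers stayed within 1.5 times 17 in every alternative. A further quantile normalization and centring moved the carriers' median from -0.04 to -0.03, and leaving out DMSO 1 moved it to -0.02, SCD inhibitor 1 or both arrays numbered 1 to -0.03. With the replicate number as a block, 5 carriers were called, 1 higher (Slc25a24, adjusted p = 0.0283) and 4 lower; Slc25a25 (0.0588), Slc25a37 (0.0755), Slc25a40 (0.0584) and Slc25a51 (0.0864) lost their calls, as did Timm22, Timm29, Sfxn1, Idh1 and Mthfd2. Deviations of same-numbered arrays correlated at 0.17, 0.14 and 0.08, and 2 of 3 inhibitor arrays correlated best with their own number; the labels do not say whether the numbers pair the arrays, and since 1 correlation was under 0.1 they were treated as unpaired. At levels under 5 and at 12 and above few genes of any kind were called, which limits what can be said of carriers there.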

Other observations

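The genes next to the called carriers on the chromosome were read from RefSeq's order of genes (assembly GRCm38.p6), a choice made after the carriers' values were seen. Of the 16 nearest measured protein-coding genes, 1 on each side of the 8 called carriers, 3 were lower in limma and 0 higher, beside 4.37% of all genes lower and 3.62% higher. Of these 3, 2 flank Slc25a34. Tmem82, a membrane protein gene whose annotated end lies 185 bases from that of Slc25a34, read 5.32 in DMSO and 4.77 with the inhibitor, a difference of -0.56 (SE 0.063, adjusted p = 0.00329 in limma). Plekhm2, which encodes an adaptor of lysosome transport, lies 1840 bases away on the other side and fell from 8.79 to 8.42 (-0.38, SE 0.025, adjusted p = 3.39e-04 in limma). Of the 4 measured genes on each side of Slc25a34, these 2 were lower and 6 did not pass, a stretch chosen around a gene already known to be lower. Among the 6, Fblim1 had a difference of -0.23 (adjusted p = 0.105) and Agmat, Dnajc16, Casp9, Spen and Zbtb17 had differences from 0.00 to 0.03. The third lower neighbour was Ptges2, a prostaglandin E synthase beside Slc25a25, which fell by 0.33 (SE 0.064) where Slc25a25 rose. The neighbours of Slc25a33, Tmem201 (-0.11) and Spsb1 (-0.00), did not pass. Dbf4, whose annotated edge lies 4 bases from that of Slc25a40, had a difference of -0.07 and did not pass (adjusted p = 0.44 in limma).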
